A study of Mus musculus with 6 samples.

Results

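Toll-like receptors (TLRs) pass their signal to the cell interior through adaptor proteins that share the TIR domain, and then through the IRAK kinases. Myd88 is the adaptor used by most TLRs and by the interleukin-1 receptor family, Tirap bridges Myd88 to Tlr2 and Tlr4, and Ticam1 (TRIF) serves Tlr3 and Tlr4. Irak4 and Irak1 are recruited to Myd88 and lead to Traf6 and NF-kB, Irak3 (IRAK-M) and Tollip restrain the pathway, and the RIP kinases Ripk1 and Ripk2 act beside it in TRIF, TNF receptor and NOD signalling. In macrophages this pathway is the main route by which bacterial lipopolysaccharide (LPS) induces cytokines.

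The genes described are 10 TLR adaptors, IRAKs and RIP kinases, Myd88, Ticam1, Tirap, Tollip, Irak1, Irak2, Irak3, Irak4, Ripk1 and Ripk2, chosen by name and found by the gene symbol that the platform annotation gives a probe. That rule found 4 of the 10 genes, with 7 of 16281 probes, where 10698 genes had a probe in all: Myd88 (1 probe), Tirap (1 probe), Tollip (3 probes) and Irak1 (2 probes). Ticam1, Irak2, Irak3, Irak4, Ripk1 and Ripk2 were matched by 0 probes and were not analysed here, so the set measured holds adaptors, an inhibitor and 1 IRAK, and neither Ripk1 nor Ripk2. No probe sequence was used, so which transcript forms a probe detects is not known here.

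RAW 264.7, a mouse macrophage cell line, was kept for 48 h either untreated or with LPS (100 ng/ml) together with LPS-binding protein (LBP, 100 pM), the serum protein that hands LPS to its receptors. The labels write the line as RAW 264.4 in places. Treated and untreated total RNA were hybridised together on 6 two-colour arrays, 3 with the treated RNA in Cy5 (red) and 3 with it in Cy3 (green), and each dye orientation had a set 1, a set 2 and a set 3. They are called the Cy5 arrays and the Cy3 arrays below. Every value below is a log2 ratio with the treated cells over the untreated ones, which is a difference and not a level. The base of the logarithm is not given in the sources used here and was read as 2. Each set was averaged over its 2 orientations, the error given after ± is the SD over these 3 averages, and an adjusted p is from limma over the 12724 probes that had a ratio on every array. The labels do not say that the sets were separate cultures, so these p-values measure only the spread between sets, which may be technical. LPS without LBP and LBP without LPS were not analysed here, so the 2 agents cannot be told apart.

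Exact zeros, 7.97% to 17.8% of an array, were taken as missing. None of the 42 values of the 7 probes was 0. As a check of direction, the 9 probes of Il1b, Il6, Tnf and Nos2, genes that LPS is known to induce, were above 0 on all 6 arrays. Because these 4 genes helped to settle the sign, their direction is partly an input. Ratios give no level, so the presence of macrophage markers could not be checked. Of 11 such probes, Adgre1 and Fcgr1 rose, Csf1r and Cd33 fell, and 7, among them those of Cd68, Cd14 and Spi1, did not pass. Of 24 fitted probes for markers of other cell types, Dcn, a fibroblast proteoglycan (2.68 ± 0.95), and Cd79a, a B cell receptor component (0.63 ± 0.11), rose. The other fibroblast and B cell markers listed did not pass. Among them were Col1a1 (0.01), Col1a2 (0.07), Col3a1 (-0.21), Cd79b (-0.07) and Ms4a1 (-0.08 and 0.12 by its fitted probes). The part of these markers in the results below was not tested. Fewer cells of a kind and less RNA per cell cannot be told apart in such bulk samples.

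Myd88 rose and Irak1 fell in treated cells, whereas Tirap and Tollip did not pass the test. Myd88, the shared adaptor of the pathway, stood at 1.35 times its untreated value. Irak1, the kinase recruited to it, stood at 82.1% and 70.3% of its untreated value by its 2 probes. Of the 7 probes, 1 was called higher and 2 lower at an adjusted p under 0.05, against 14.8% higher and 12.2% lower, or 27.1% in either direction, among all 12724 probes. That is 3 of 7 (42.9%), too few probes to set the share apart from the background. Their median ratio was -0.18, and that of all probes was -0.01.

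The promoter windows of the genes called in opposite directions are shown so that the regulatory sequence can be read beside the ratios. They are RefSeq windows (GRCm38.p6) from 250 bases before to 50 bases after the annotated start, written 5′ to 3′ on the strand of the gene. The Myd88 window is chr9:119339969-119340268, minus strand, and the Irak1 window is chrX:74023872-74024171, minus strand. Capitals mark letters that match 1 of 4 motifs searched on both strands: kappaB-type GGGNNNTTCC, AP-1 TGANTCA, the interferon-stimulated response element (ISRE) core GAAANNGAAA and the STAT site (GAS) TTCNNNGAA. The motifs were chosen after the ratios were known.
Myd88: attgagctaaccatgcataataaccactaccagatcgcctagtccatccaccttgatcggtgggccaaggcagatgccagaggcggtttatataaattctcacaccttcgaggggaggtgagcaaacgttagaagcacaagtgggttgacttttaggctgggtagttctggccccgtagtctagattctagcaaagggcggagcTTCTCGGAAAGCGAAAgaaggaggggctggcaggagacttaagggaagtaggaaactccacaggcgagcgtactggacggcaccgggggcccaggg
Irak1: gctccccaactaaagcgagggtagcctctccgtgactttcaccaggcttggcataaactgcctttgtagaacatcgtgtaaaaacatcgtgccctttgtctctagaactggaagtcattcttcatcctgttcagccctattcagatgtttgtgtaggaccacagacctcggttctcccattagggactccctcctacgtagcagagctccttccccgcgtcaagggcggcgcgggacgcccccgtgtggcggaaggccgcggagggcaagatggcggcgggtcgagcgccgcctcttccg

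The Myd88 window held overlapping matches to the GAS letters, TTCTCGGAA at -46 to -38 (the start base being 0), and to the ISRE core, GAAAGCGAAA at -40 to -31. Of 32851 RefSeq mouse windows of the same length, 8.3% held the GAS letters and 3.44% the ISRE core. The Irak1 window, and a second Irak1 window whose start lies 3 bases away, held none of the 4 motifs. The Tollip window held none, and 1 of 2 Tirap windows held a kappaB-type match, GGGCACTTCC at 2 to 11 from the start, letters found in 5.56% of windows, against 7.81% for AP-1. A window of Ripk1, a gene with 0 probes, also held overlapping matches to the GAS letters (-11 to -3) and the ISRE core (-5 to 4). A match is a description of the letters and not evidence of a bound site.

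The Myd88 probe (1769) read 0.27, 0.68 and 0.66 on the Cy5 arrays of sets 1, 2 and 3, and 0.17, 0.40 and 0.44 on the Cy3 arrays. All 6 arrays were above 0, and both arrays of set 1 lay below the other 4. The set means of 0.22, 0.54 and 0.55 averaged 0.44 ± 0.19 (n = 3, limma, adjusted p = 0.0125), with a 95% confidence interval of 0.21 to 0.66, or 1.16-fold to 1.58-fold. Of all fitted probes, 89.9% had a ratio at or below this one. The call was lost without set 2 (0.39, limma, adjusted p = 0.0817), and the value stayed between 0.38 and 0.54 when any 1 set or array was left out.

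**Figure D1:**
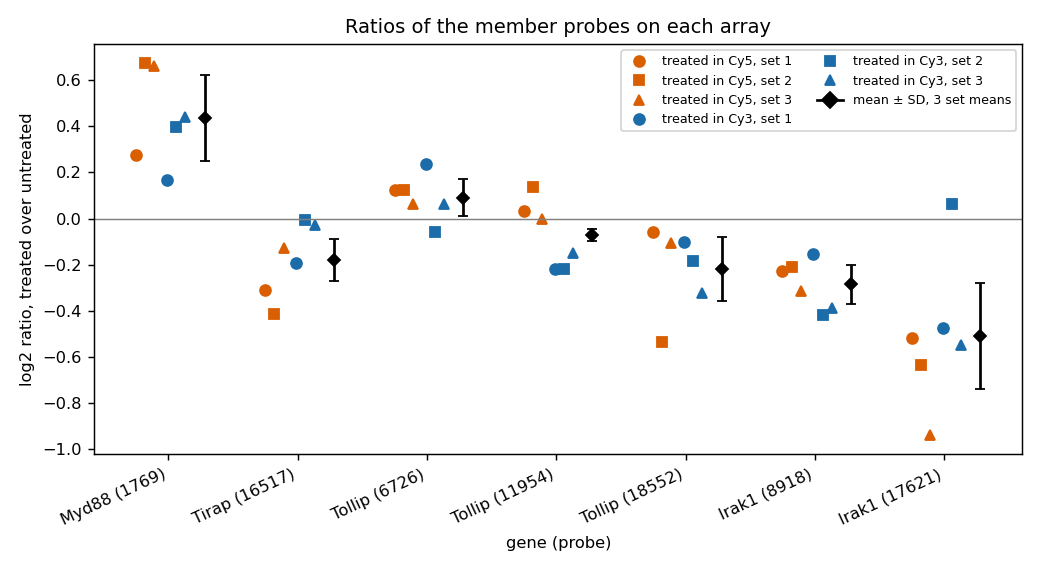
The vertical axis gives the log2 ratio of treated over untreated cells for each of the 7 probes, with 1 point per array (orange, treated RNA in Cy5; blue, treated RNA in Cy3; the symbol gives the set) and a black diamond for the mean ± SD of the 3 set means. Myd88 lies above 0 on all 6 arrays, 1 Irak1 probe (8918) lies below 0 on all 6, and the other (17621) is above 0 on 1 array, at 0.06.

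Irak1 is the kinase that Irak4 phosphorylates and that then passes the signal to Traf6. Its probe 8918 read -0.23, -0.21 and -0.31 on the Cy5 arrays of sets 1, 2 and 3, and -0.15, -0.42 and -0.39 on the Cy3 arrays. All 6 arrays were below 0, from -0.42 to -0.15. Its mean was -0.28 ± 0.08 (n = 3, limma, adjusted p = 0.0419), with a 95% confidence interval of -0.48 to -0.09.

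The other Irak1 probe, 17621, read -0.52, -0.64 and -0.94 on the Cy5 arrays, and -0.47, 0.06 and -0.55 on the Cy3 arrays. The Cy3 array of set 2 was the exception, just above 0, and the other 5 arrays were all below -0.4. Its mean was -0.51 ± 0.23 (n = 3, limma, adjusted p = 0.00853), with a 95% confidence interval of -0.75 to -0.27. Probe 17621 was the lower of the pair on 5 of 6 arrays, by 0.22 on average, so the probes shared a direction and differed in size. The call of 8918, close to the threshold, was lost without any 1 of the 3 sets and without 5 of the 6 single arrays, all but the Cy3 array of set 1 (limma, adjusted p = 0.0433 to 0.176 over these 9 cases), while among the same 9 cases that of 17621 was lost only without the Cy5 array of set 2 (-0.39, limma, adjusted p = 0.109).

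With zeros kept as measured ratios, none of the 7 probes was called (limma; 5 had an unadjusted p under 0.05, against 4 with zeros missing), with an adjusted p of 0.102 for Myd88 and of 0.0681 and 0.109 for Irak1. The ratios of the 7 probes are the same in both fits, since none of them is 0. The fits differ in the number of probes adjusted over (12724 with zeros missing, 16281 with the zeros kept) and in the prior degrees of freedom of the variance that limma borrows from all probes (6.33 and 0.76), and the part of each in the lost calls was not tested.

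Tirap, the adaptor that brings Myd88 to Tlr4, read -0.31, -0.42 and -0.13 on the Cy5 arrays of sets 1, 2 and 3 and -0.19, -0.01 and -0.03 on the Cy3 arrays. All 6 arrays were below 0, but 2 of them by 0.03 or less. The mean of -0.18 ± 0.09 (n = 3) did not pass (limma, adjusted p = 0.169), and its 95% confidence interval ran from -0.38 to 0.02, that is from 0.769 to 1.01 times the untreated value.

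Tollip binds IRAK kinases and limits their activity, and its 3 probes gave 3 different readings, 0 of which passed. Probe 6726 read 0.12, 0.12 and 0.06 on the Cy5 arrays and 0.24, -0.06 and 0.06 on the Cy3 arrays, a mean of 0.09 ± 0.08 (limma, adjusted p = 0.485). Probe 11954 read 0.03, 0.14 and -0.00 on the Cy5 arrays and -0.22, -0.22 and -0.15 on the Cy3 arrays, a mean of -0.07 ± 0.03 (limma, adjusted p = 0.591). Its Cy5 and Cy3 arrays did not overlap, a difference that the small SD of its set means does not show.

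Probe 18552 of Tollip read -0.06, -0.53 and -0.11 on the Cy5 arrays and -0.10, -0.19 and -0.32 on the Cy3 arrays. All 6 arrays were below 0, yet the mean of -0.22 ± 0.14 did not pass (limma, adjusted p = 0.12; unadjusted p = 0.0444). Probe 18552 was below probe 6726 on 6 of 6 arrays, by 0.31 on average. The 95% confidence intervals of the 3 probes together ran from -0.43 to 0.29, so a change of Tollip of up to 1.22-fold upward or to 0.743 of its untreated level was within them.

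**Figure D2:**
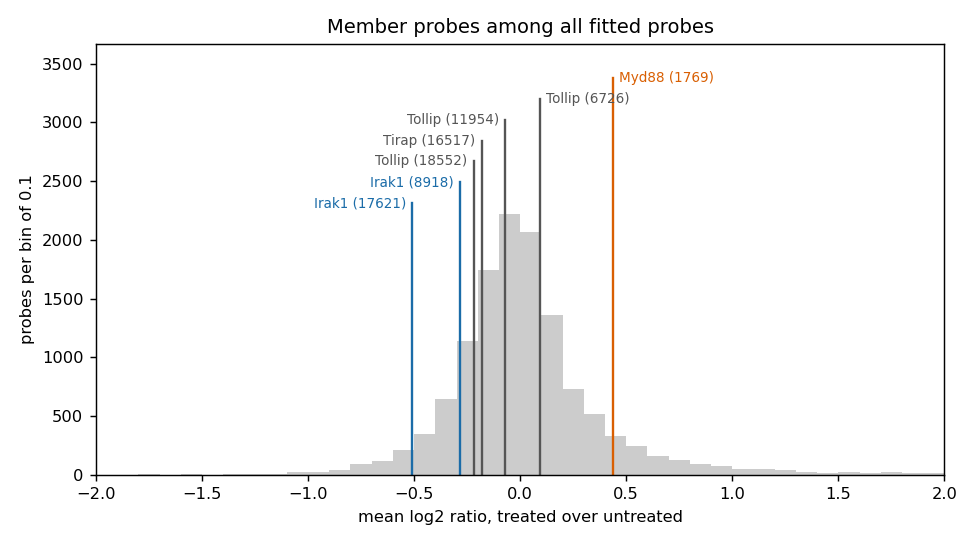
Grey bars count all 12724 fitted probes by their mean log2 ratio, treated over untreated, in bins of 0.1 (horizontal axis drawn from -2 to 2), and vertical lines mark the 7 probes, orange if called higher, blue if called lower and dark grey if not called. Myd88 at 0.44 and Irak1 at -0.51 lie in the flanks, and Tollip and Tirap lie in the central mass.

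In size the 7 ratios ran from 0.07 to 0.51. The smallest ratio called for any of the 12724 probes was 0.26 in size, and the 4 uncalled probes of Tirap and Tollip, at 0.22 or less, were all below that. The order from highest to lowest was Myd88, Tollip 6726, Tollip 11954, Tirap, Tollip 18552, Irak1 8918 and Irak1 17621. The 95% confidence intervals of neighbours in this order overlapped throughout, while that of Myd88 (from 0.21) did not overlap that of Tirap (up to 0.02), Tollip 11954 (up to 0.12), Tollip 18552 or either Irak1 probe (up to -0.09).

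A dye effect, a ratio that follows the colour and not the treatment, was tested on the Cy5 array minus the Cy3 array of each set, divided by 2. None of the 7 probes passed (limma; 0 had an unadjusted p under 0.05), against 0.181% of all probes at an adjusted p under 0.05 (3348 of 12724 at an unadjusted p under 0.05). The nearest to passing were Tollip 11954 (dye effect of 0.13, unadjusted p = 0.053, limma, adjusted p = 0.196) and Irak1 17621 (-0.19, unadjusted p = 0.0566, limma, adjusted p = 0.202). By orientation, Myd88 averaged 0.54 on the Cy5 and 0.34 on the Cy3 arrays, and Irak1 17621 averaged -0.70 and -0.32. With the 3 Cy3 arrays alone none of the 7 probes was called (limma, with 3 at an unadjusted p under 0.05). Over all probes that fit called 3680 of 13831. With the 3 Cy5 arrays alone Myd88 and Irak1 17621 were called, against 2390 of 13046 over all probes.

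**Figure D3:**
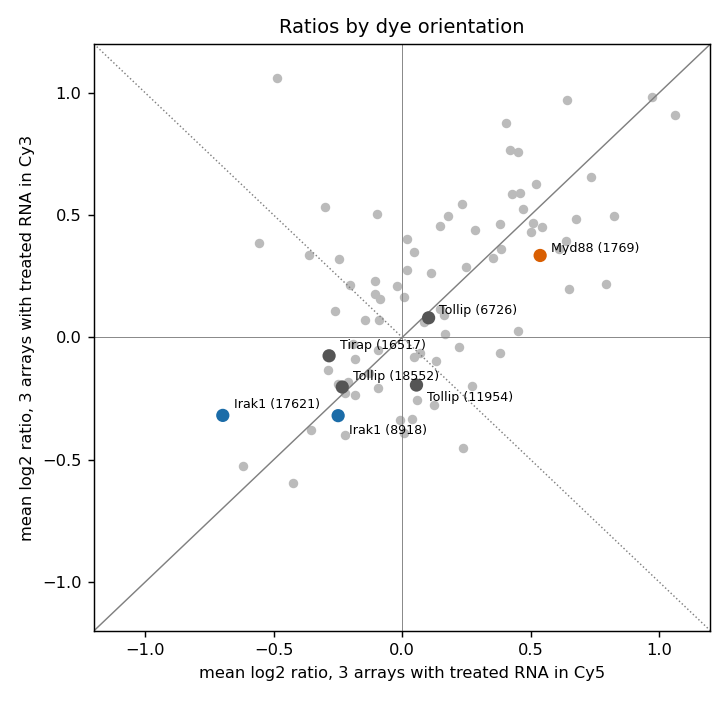
Each point is 1 probe, with its mean log2 ratio (treated over untreated) on the 3 arrays with treated RNA in Cy5 on the horizontal axis and on the 3 with treated RNA in Cy3 on the vertical axis. Large points are the 7 probes (orange called higher, blue called lower, dark grey not called), small grey points are the probes of the 6 pathway lists, 5 of which lie beyond the axes. The solid diagonal marks equal ratios in both orientations, near which Tollip 18552 (-0.23 and -0.20) lies, and the dotted one marks ratios of equal size and opposite sign.

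The other genes of the pathway were followed in 6 lists by role, chosen with earlier results of these data known. The shares and medians of the lists may therefore partly be an input. Of their 84 fitted probes, from 56 genes, 33 were called higher and 4 lower, that is 44% in either direction, against 27.1% among all probes, and their median was 0.13 against -0.01. The lists named 84 genes, of which 25 had 0 probes under their symbol, and 16 of 100 probes were not fitted because they were listed at 0 on at least 1 array. With zeros kept, 17 of 100 probes of the lists were called higher and 3 lower, against 903 higher and 504 lower among all 16281 probes.

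Partners and regulators at the receptors went both ways, with 5 of 14 probes higher and 2 lower (median 0.15). The called share was 50%, against 27.1% among all probes. Pik3ap1 (BCAP), a TIR-like adaptor that links TLRs to PI3 kinase, rose by 1.21 ± 0.11 and 0.99 ± 0.24 on its 2 probes (limma, adjusted p = 3.14e-05 and 3.15e-04). Il1rap, the co-receptor of the Myd88-dependent interleukin-1 receptors, rose by 0.66 ± 0.06 on the higher of its 2 probes. Inpp5d (SHIP1), a lipid phosphatase, fell by 0.57 ± 0.13 and 0.51 ± 0.11 on its 2 probes (limma, adjusted p = 0.00237 and 0.00369).

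Downstream of Irak1, the Pellino, TRAF6 and TAK1 complex list had 2 of 14 probes higher and 0 lower (limma; 1 lower at an unadjusted p under 0.05), with a median of -0.04. The called share, 14.3%, was below the 27.1% among all probes. Both calls belonged to Peli1, a ubiquitin ligase that acts on IRAK kinases. Its probes 11567 and 1327 rose by 0.50 ± 0.10 and 0.34 ± 0.12 (limma, adjusted p = 0.00409 and 0.0247), while its probe 18154, named after its value was seen, averaged -0.09 ± 0.24 with signs that differed between arrays. The 12 uncalled probes of this list ran from -0.21 to 0.09, and among them was Traf6, the ligase next after Irak1, at 0.09 ± 0.05 (limma, adjusted p = 0.489), also named after its value was seen. Traf6 was above 0 on 3 arrays and below 0 on 3, which the small SD of its set means does not show.

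The list of IKK, TBK1 and TPL2 kinases had 10 of 14 probes higher, from 7 of 9 genes, and 0 lower, with a median of 0.43. At an unadjusted p under 0.05 (limma) 0 were lower. The called share was 71.4%, against 27.1% among all probes. Ikbke (IKK-epsilon), which phosphorylates interferon regulatory factors, read 1.36, 1.57 and 1.57 on the Cy5 arrays and 1.23, 1.59 and 1.60 on the Cy3 arrays with probe 8199. That is 1.49 ± 0.17, or 2.80-fold (limma, adjusted p = 1.42e-05). A second Ikbke probe, 10507, named after its value was seen, averaged -0.11 ± 0.07 and did not pass (limma, adjusted p = 0.395), so the 2 probes of Ikbke disagree. Map3k8 (TPL2), the kinase that activates the ERK branch, rose by 0.70 ± 0.06 and 0.64 ± 0.06 on its 2 probes.

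**Figure D4:**
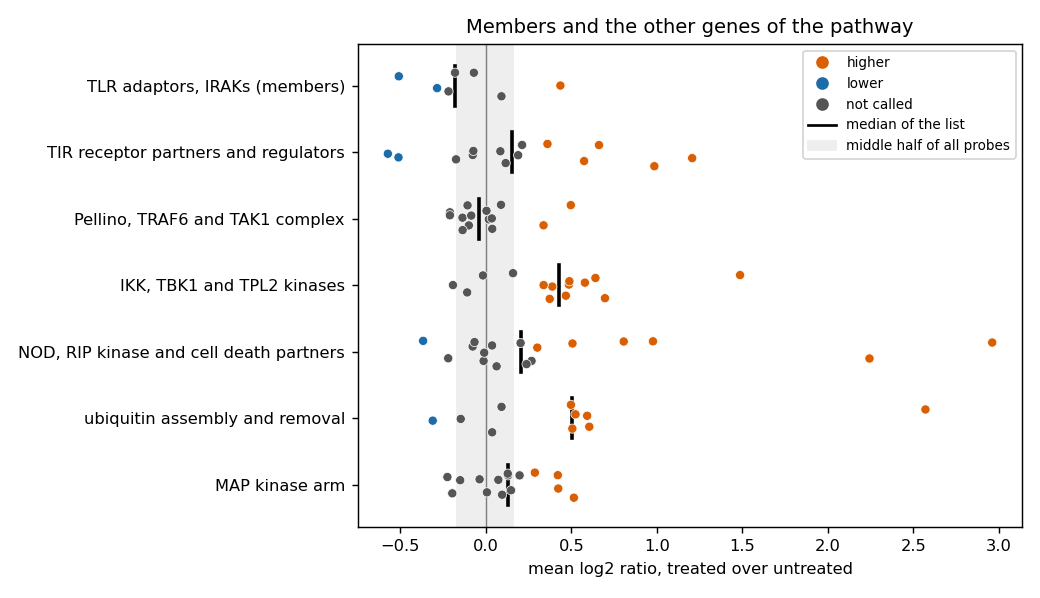
The horizontal axis gives the mean log2 ratio of each fitted probe, treated over untreated, by list (orange higher, blue lower, dark grey not called). Black bars are list medians, from -0.18 for the TLR adaptors and Irak1 to 0.50 for ubiquitin assembly and removal, and the shaded band is the interquartile range of all 12724 probes, from -0.17 to 0.16.

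Among NOD, RIP kinase and cell death partners, 6 of 17 probes rose and 1 fell (median 0.20). The called share was 41.2%, against 27.1% among all probes. Zbp1, a nucleic acid sensor that engages RIP kinases, rose by 2.96 ± 0.46 (7.79-fold, limma, adjusted p = 4.35e-06). Mlkl, the executor of necroptosis that Ripk3 phosphorylates, rose by 2.24 ± 0.05 (4.73-fold, limma, adjusted p = 6.88e-07), and Cflar, an inhibitor of caspase-8, rose by 0.98 ± 0.31. Cradd, a death-domain adaptor of Ripk1, fell by 0.37 ± 0.06 (limma, adjusted p = 0.0138) on 1 of its 2 probes, the other being at 0.06 ± 0.07 without passing. The RIP kinases with a fitted probe, named after their values were seen, were Ripk3 at 0.27 ± 0.16 (limma, adjusted p = 0.0713) and Ripk4 at -0.01 ± 0.13 (limma, adjusted p = 0.939), neither of which passed. Ripk4 read -0.47, -0.24 and -0.38 on the Cy5 arrays and 0.20, 0.18 and 0.63 on the Cy3 arrays. Its mean near 0 thus averages opposite signs and does not show an unchanged gene. The dye effect of Ripk4 was -0.35 (limma, unadjusted p = 0.00495, adjusted p = 0.0977). With the 6 arrays fitted singly, not as set means, Ripk3 passed (limma, adjusted p = 0.0295 with no block, 0.0223 and 0.0265 with set as a fixed or random block). These fits use the spread between single arrays, and the labels do not say that the 2 arrays of a set were separate cultures.

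Genes of ubiquitin assembly and removal had 6 of 10 probes higher and 1 lower (median 0.50). The called share was 70%, against 27.1% among all probes. Usp18, which removes ISG15 and is itself interferon-induced, rose by 2.57 ± 0.15 (limma, adjusted p = 5.66e-07). Tnfaip3 (A20), which removes ubiquitin chains from Traf6 and Ripk1, rose by 0.61 ± 0.05 on the higher of its 2 probes (limma, adjusted p = 0.00119), and Tnip1, its binding partner, rose by 0.59 ± 0.11. Stub1, a chaperone-linked ubiquitin ligase, fell by 0.31 ± 0.06 (limma, adjusted p = 0.0278).

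The MAP kinase arm had 4 of 15 probes higher and 0 lower (limma; 2 lower at an unadjusted p under 0.05), 26.7% in all, close to the background of 27.1%. Map2k1 (MEK1) rose by 0.51 ± 0.23 and 0.42 ± 0.22 on its 2 probes and Map2k4 by 0.42 ± 0.11 on 1 of its 2 probes. The fourth call was Mapk9 probe 2821 at 0.29 ± 0.12 (limma, adjusted p = 0.0465), named after its value was seen because its 6 arrays do not share a sign. A second Mapk9 probe, 16102, averaged 0.15 ± 0.13 and did not pass (limma, adjusted p = 0.275).

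Of the 21 list probes named by the rule on size, none lost its call in the 3 fits of the 6 arrays. Leaving out 1 set or array ended a call of Peli1 1327, Cradd, Stub1 or Map2k1 15401 (limma, adjusted p up to 0.122). On the Cy5 arrays alone 5 of the 21 were lost (Peli1 1327, Cradd, Stub1, Map2k4 and Tnip1, the last at a limma adjusted p = 0.0542), and on the Cy3 arrays alone 3 (Peli1 1327, Cradd and Map2k1 15401). With zeros kept, 7 of the 21 were lost, among them Pik3ap1 1162, Inpp5d 12313 and Cflar.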

How the data were processed

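Per the labels, total RNA of treated and untreated RAW 264.7 cells was labelled with Cy3 and Cy5 and hybridised together. The authors deposited 1 log2 ratio per probe and array (Cy5 over Cy3, the base read as 2). Their scanner, background correction and normalization are not recorded in the labels or the file header, so other backgrounds or filters on dim probes could not be tried. All 6 columns were mapped, with 0 left over. Arrays of 1 orientation correlated at 0.67 to 0.77 and of opposite orientation at -0.66 to -0.41 over 16281 probes, so the sign of the Cy3 arrays was turned. Exact zeros were set to missing, which left 12724 probes.

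Limma 3.58.1 in R 4.3.3 tested whether the 3 set averages, each over both orientations, differed from 0 (lmFit, eBayes, two-sided, Benjamini-Hochberg over all fitted probes, threshold 0.05). The number of arrays limits the precision. Probes were named by the platform annotation, in which 13738 had 1 symbol, 52 several and 2491 none, and 13694 of the first were held by RefSeq (GRCm38.p6) with 0 symbols changed. Named were all members and, of each list, the 3 highest and the 3 lowest called probes. Members and lists were chosen with earlier results of these data known. Alternatives were zeros kept, partly missing probes, gene means, array-level fits with and without a replicate block, scaling, centring (added after the data were seen), 1 orientation, and leave-outs.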

Additional observations from a re-analysis of the deposited data

Results flagged for a closer look

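The Mapk9 probe 2821, called higher at 0.29 ± 0.12, read -0.52, -0.82 and -0.12 on the 3 Cy5 arrays and 1.27, 1.13 and 0.79 on the 3 Cy3 arrays, so every array of one orientation moved opposite to every array of the other. Its dye effect, the Cy5 minus the Cy3 array divided by 2, was -0.77 (limma, unadjusted p = 0.00123) and did not pass after adjustment (limma, adjusted p = 0.0977).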

How the results depend on the processing

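With zeros kept, limma called 1407 of 16281 probes, 0 of the 7 and 20 list probes, against 3443, 3 and 37. On the 3 Cy3 arrays alone 0 of the 7 were called, against 3680 of 13831 over all probes. Averaging probes per gene gave 2399 genes (26.1% of 9180), 2 of the 4 genes, Myd88 and Irak1, and 24 list genes. Leaving out 1 set or array gave 1992 to 3067 probes and 1 to 3 of the 7. The probes fell by over 1.5 times without set 2 (2230) or the Cy3 array of set 2 (1992) or 3 (2200), and 1 of the 7 was left without set 2 or its Cy5 array. The set numbers did not clearly pair the arrays (correlation of deviations 0.53, 0.08 and 0.17). With set as a fixed replicate block limma called 3625 probes, 3 of the 7 and 36 list probes, and as a random block 3798, 3 and 36. Signs turned only for uncalled or orientation-bound probes. Tollip 11954 was 0.055 on the Cy5 arrays alone. Ripk4 was 0.34 on the Cy3 arrays and -0.18 to 0.15 with leave-outs, and Peli1 18154 was 0.39 and -0.38 to 0.20. Mapk9 2821 was -0.49 on the Cy5 arrays and -0.038 to 0.61 with leave-outs. Scaling and centring changed no call of the 7. The causes were not tested, nor was the part of the lower number of arrays or units in some fits.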
